A study of Mus musculus with 6 samples.

Results

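Lateral amygdala that received a small interfering RNA (siRNA) with a scrambled sequence was compared with control lateral amygdala. The comparison used 4 of the 6 RNA-seq libraries of the study, 2 labelled control and 2 labelled scrambled siRNA. All came from male mice of a 129xC57BL/6 hybrid strain aged 2 to 3 months. The remaining group, also of 2 libraries, received an siRNA against Baf53b (Actl6b), a neuronal subunit of the BAF chromatin remodelling complex, injected 1 day after training according to the design text. Its values are given beside some genes and its spread enters the test, but it was not compared here. Neither the treatment nor the training of the control mice is given, nor the time at which the scrambled siRNA was injected. They mention tissue from 4 mice without saying how these mice map to the libraries, so the p-values below measure the spread between libraries, which may be technical. A scrambled siRNA has no intended target, so its comparison with control takes in the siRNA procedure as a whole. The components of the procedure (surgery, carrier and RNA) cannot be told apart in this design. Nor can they be told apart from any difference between the groups in training, animals or library preparation.

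In brain tissue, microglia are the resident phagocytes. They survey for debris through Fc and complement receptors, digest it in lysosomes, and can display peptides on class I and class II major histocompatibility molecules. Astrocytes near an injury build up the intermediate filament protein Gfap and secrete acute phase proteins. Double-stranded RNA can be detected by endosomal and cytosolic receptors, whose signalling induces interferons and, through STAT and IRF factors, the interferon-stimulated genes.

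Expression was deposited as FPKM, the fragments mapped to a gene scaled to its length and to the total of the library. Differences below are of log2(FPKM + 1), scrambled siRNA minus control, a scale that understates the differences of genes at low levels. Between 6.43 M and 10.7 M fragments per library were estimated behind the genes from the deposited confidence intervals, with 171 to 306 fragments for the median gene at 1 FPKM or more. The mitochondrial share of all FPKM was 19.4% and 29.5% for the controls and 15.02% and 26.9% for scrambled siRNA, a difference in means with an exact permutation p of 0.667 (two-sided). The replicate 1 library was the lower one in each group, and scrambled siRNA was lower than control within each replicate number. With 2 libraries against 2, an exact test of a single value cannot go below 0.333. The tissue label was checked against neuronal genes: over the 4 libraries Slc17a7, the vesicular glutamate transporter of cortical-type neurons, was at 303 to 410 FPKM, Gad1 at 88.5 to 101 FPKM, and Rspo2, a gene of basolateral amygdala neurons, was low at 0.963 to 3.41 FPKM.

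The named genes with the smallest p on the higher side included the astrocyte gene Gfap, the complement genes C1qc and C4b, and the antigen presentation genes H2-D1 and Cd74. No gene passed the test across all genes. Of 14516 genes tested with limma, 0 were higher and 0 lower at a Benjamini-Hochberg adjusted p under 0.05 (0% each), and the smallest adjusted p was 0.212, for Gfap. At an unadjusted p under 0.05, 261 genes were higher (1.8%) and 26 lower (0.179%). These 287 genes were fewer than the share of 0.05 expected to pass this threshold where no gene differs. In 1761 genes (12.1%) both scrambled siRNA libraries lay above both control libraries, and in 816 (5.62%) both lay below. The difference exceeded 1 in 49 genes (0.338%), of which 28 were protein-coding and 17 belonged to the immune lists described below. It was below -1 in 25 genes (0.172%), of which 3 were protein-coding and 0 belonged to these lists. For comparison, 12401 of the 14516 genes tested were protein-coding and 126 belonged to these lists.

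Most differences were small. The median over all genes was 0.04, with 90% of the genes lying between -0.19 and 0.34, and 63.3% of genes had a positive difference. That share depended on the scaling: it was 45.3% to 48.5% under 3 other scalings (median-of-ratios factors, quantile normalization, and the FPKM sum without mitochondrial genes), and the non-overlapping genes then numbered 1388 to 1561 above and 1272 to 1474 below. Counts also moved with single libraries. Genes higher at an unadjusted p under 0.05 numbered 576 without control replicate 1, 155 without scrambled siRNA replicate 1 and 397 without scrambled siRNA replicate 2. Lower genes numbered 221, 41 and 79 in the same order, and 82 without control replicate 2. Adjusted calls reached 5 higher without either scrambled siRNA library, and 7 and 5 lower without control replicate 1 and 2, with the lone library assumed to vary like the other groups.

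**Figure D1:**
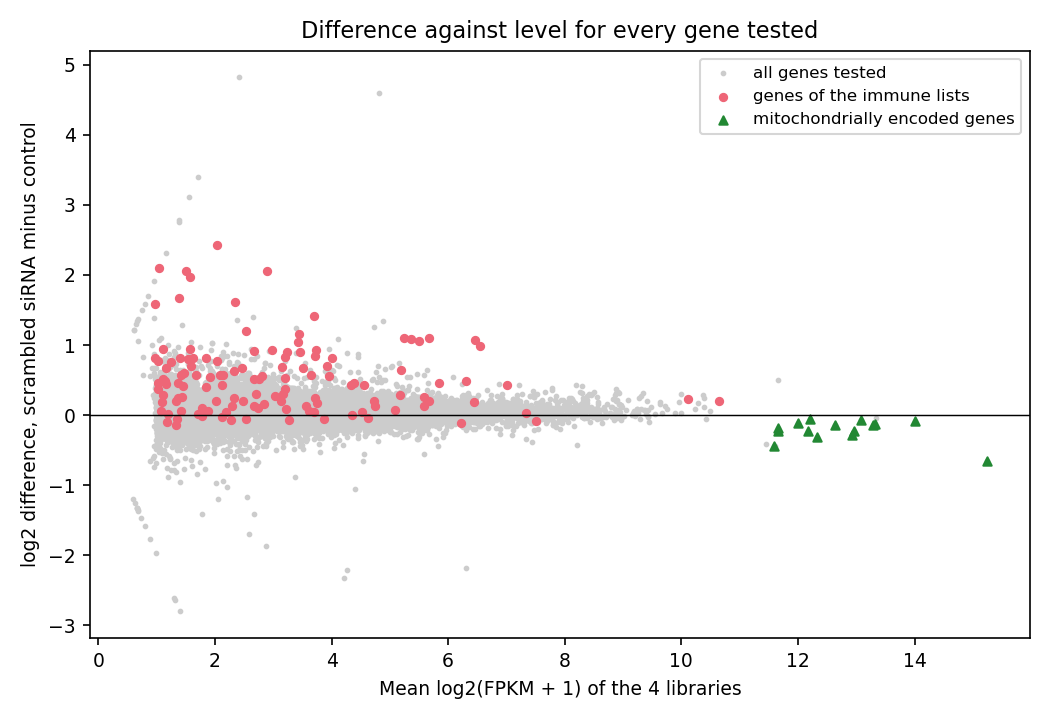
Difference in log2(FPKM + 1), scrambled siRNA minus control (vertical axis), against the mean log2(FPKM + 1) of the 4 libraries (horizontal axis); 1 point per gene tested, with genes of the immune lists in red and mitochondrially encoded genes as green triangles. The red points lie mostly above 0 (median 0.45), while the bulk of genes lies near 0 (median 0.04).

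Across 14 lists of immune genes, 126 genes were tested. The lists were chosen with earlier results of these data known, so their shares against all genes may reflect that choice and are descriptive. At an unadjusted p under 0.05, 59 of them were higher (46.8%, against 1.8% of all genes) and 0 were lower. Both scrambled siRNA libraries lay above both controls in 87 (69%, against 12.1%) and below in 0 (against 5.62%). Their median difference was 0.45, and it was 0.40 to 0.41 under the 3 other scalings. With no filter on low values both measures were smaller. Of 231 immune genes, 77 were then higher at an unadjusted p under 0.05 (33.3%, against 2.31% of all genes) and 0 lower. The median of these genes was 0.28, against 0.02 for all genes. Counted over all 236 listed genes in the tables, whatever their level, 156 lay above both controls (66.1%, against 13.1% of 28134 genes) and 3 below (1.27%, against 8.37%). Without control replicate 1 and 2 the median of the immune genes was 0.42 and 0.44. Without scrambled siRNA replicate 1 and 2 it was 0.33 and 0.46. Each of these omissions left fewer higher members at an unadjusted p under 0.05 than the main fit. The smallest adjusted p among these genes was 0.318 (limma). Several listed genes reached the filter on low values only through scrambled siRNA, so counts over all listed genes in the tables are given beside those of tested genes below and are to be read against 13.1% above and 8.37% below. In bulk tissue, more cells of a type and more RNA per cell cannot be told apart.

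Gfap (ENSMUSG00000020932.14, mm10 chromosome 11, 102887336 to 102900912, minus strand), the astrocyte intermediate filament gene, had the smallest p of all genes. It was at 16.9 and 18.3 FPKM in control (mean 17.6 ± 1.03 SD, n = 2) and at 45.1 and 47.3 FPKM in scrambled siRNA (46.2 ± 1.54 SD, n = 2). The groups were far apart relative to the spread within each. The difference was 1.35 (SE 0.13, 95% confidence interval 1.04 to 1.65), with an unadjusted p of 1.46e-05 and an adjusted p of 0.212 (limma). Under 19 alternatives the difference ranged from 1.28 to 1.402 and the adjusted p from 0.0562 to 0.328. In the Baf53b siRNA libraries Gfap was at 169.9 and 177.7 FPKM.

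Lcn2 (chromosome 2, 32384633 to 32388252, minus strand), which encodes the acute phase iron-siderophore carrier lipocalin 2, was listed at 0 in both controls and at 10.2 and 3.24 FPKM in scrambled siRNA, so no fold is given. The scrambled siRNA libraries differed widely from each other, and both lay above the controls. Its adjusted p was 0.318 with limma and ranged from 0.0053 to 1.00 over the alternatives, the lowest being without scrambled siRNA replicate 2. In Baf53b siRNA it was at 9.88 and 10.2 FPKM.

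Other genes of the reactive astrocyte and acute phase list had smaller differences. Of 25 listed genes 13 were tested, 4 were higher and 0 lower at an unadjusted p under 0.05, and the median was 0.18. Over all 25, 10 lay above both controls and 1 below. Ifitm3, an interferon-induced membrane protein on this list, was at 5.87 and 5.87 FPKM in control and 14.9 and 9.32 in scrambled siRNA. Stat3, a transcription factor of the acute phase response, was at 12.5 and 10.95 FPKM in control and 13.9 and 12.9 in scrambled siRNA, a difference of 0.18 with an unadjusted p of 0.326. The 17 homeostatic astrocyte genes had a median of 0.06. Of these, 16 overlapped between the groups and 1 lay above both controls (12.1% of all genes). Aqp4, the water channel of astrocyte endfeet, was the exception, at 17.6 and 19.8 FPKM in control and 20.4 and 22.1 FPKM in scrambled siRNA. Gfap thus stood apart in size from the general astrocyte genes, though the difference between them was not tested.

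**Figure D2:**
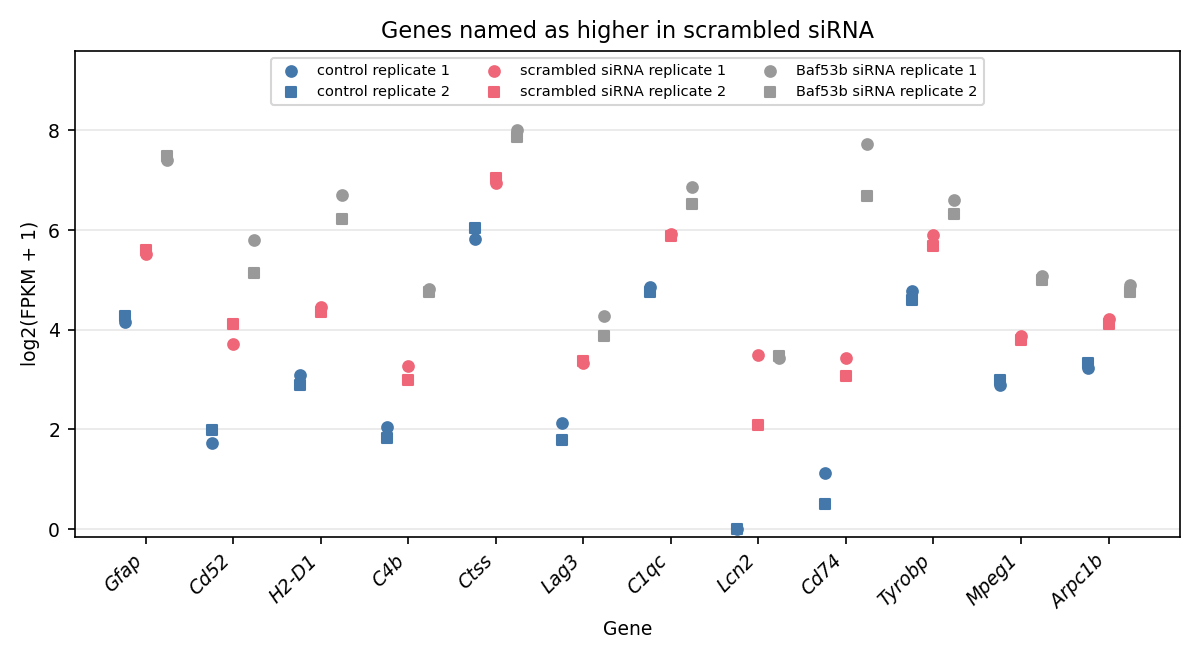
Level as log2(FPKM + 1) (vertical axis) of the 12 genes named as higher (horizontal axis), 1 point per library: control in blue, scrambled siRNA in red and Baf53b siRNA in grey, circles for replicate 1 and squares for replicate 2. Both red points lie above both blue points for each gene, which the choice of genes by p in this comparison favours. Lcn2 is at 0 in both controls.

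Microglial genes were next. Of the 18 homeostatic microglia markers, all tested, 15 lay above both controls and 0 below, 8 were higher at an unadjusted p under 0.05, and the median was 0.42. P2ry12, the purinergic receptor that marks surveying microglia, was at 49.1 and 44.0 FPKM in control and 54.8 and 52.3 FPKM in scrambled siRNA, a difference of 0.20. Trem2, a lipid-sensing receptor of microglia, was at 7.14 and 6.97 FPKM in control and 15.9 and 12.3 FPKM in scrambled siRNA, a difference of 0.90. Aif1, which encodes the actin-binding protein Iba1, was at 7.95 and 9.597 FPKM in control and 15.3 and 17.9 FPKM in scrambled siRNA. The groups did not overlap for these genes, and the markers differed in size among themselves. For P2ry12 the gap between the groups was smaller than the spread between the controls. Siglech, a sialic acid-binding receptor, had a difference of 0.56. The summed level of the 18 markers was 266 and 268 FPKM in control and 377 and 364 FPKM in scrambled siRNA. The microglial and phagocyte gene groups that follow were measured in the same libraries, and the part of this shift in their differences was not tested.

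Tyrobp (chromosome 7, 30413760 to 30417585, plus strand) encodes the adaptor that signals for Trem2 and other myeloid receptors. It was at 26.4 and 23.2 FPKM in control (24.8 ± 2.26 SD, n = 2) and 58.7 and 50.3 FPKM in scrambled siRNA (54.5 ± 5.98 SD, n = 2), a difference of 1.10 (SE 0.16). The groups did not overlap. Cd52 (chromosome 4, 134082448 to 134095082, minus strand), a small surface glycoprotein of lymphocytes and myeloid cells, stood at 2.31 and 2.97 FPKM in control and 12.2 and 16.4 FPKM in scrambled siRNA, a difference of 2.06 (SE 0.25). Mpeg1 (chromosome 19, 12460779 to 12465284, plus strand), the pore-forming protein perforin-2 of macrophages, was at 6.48 and 6.99 FPKM in control and 13.8 and 12.8 FPKM in scrambled siRNA, a difference of 0.89 (SE 0.13). The adjusted p of each was 0.318 (limma), as it was for every named gene from Cd52 to Mpeg1 in order of p. Arpc1b (chromosome 5, 145114215 to 145130705, plus strand), a subunit of the Arp2/3 complex that branches actin filaments, was at 8.35 and 9.14 FPKM in control and 17.5 and 16.3 FPKM in scrambled siRNA, a difference of 0.88 (SE 0.14) with an adjusted p of 0.336 (limma).

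Genes listed as disease-associated microglia genes were uneven. Of 20 listed genes 12 were tested, 8 lay above both controls, and the median was 0.23. Over all 20, 15 lay above both controls and 1 below. Lyz2, the lysozyme of macrophages, was at 2.50 and 1.42 FPKM in control and 7.78 and 7.94 FPKM in scrambled siRNA, a difference of 1.61. Apoe, the main brain apolipoprotein, was at 1413 and 1599 FPKM in control and 1844 and 1611 FPKM in scrambled siRNA, a difference of 0.20 (unadjusted p = 0.36). Lyz2 was separated by much more than its spread, whereas the lower scrambled siRNA value of Apoe lay just above the higher control value.

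Complement genes differed by up to 1.20. Of 18 listed components and receptors 9 were tested, 7 were higher at an unadjusted p under 0.05 and 7 lay above both controls, with a median of 0.81. Over all 18, 13 lay above both controls and 1 below. C1q, the pattern recognition molecule that starts the classical pathway and tags synapses and debris, is built from the products of C1qa, C1qb and C1qc. C1qa was at 36.7 and 31.4 FPKM in control and 71.3 and 76.8 FPKM in scrambled siRNA. C1qb was at 31.5 and 29.2 FPKM in control and 67.4 and 61.0 FPKM in scrambled siRNA. C1qc (chromosome 4, 136889804 to 136893065, minus strand) was at 28.0 and 26.2 FPKM in control (27.1 ± 1.22 SD, n = 2) and 59.3 and 58.3 FPKM in scrambled siRNA (58.8 ± 0.684 SD, n = 2). The 3 chains thus had nearly the same difference, 1.10, 1.06 and 1.09. C4b (chromosome 17, 34728380 to 34743882, minus strand), the next component of that pathway, was at 3.12 and 2.58 FPKM in control and 8.70 and 7.004 FPKM in scrambled siRNA, a difference of 1.20 (SE 0.16). C4b has a near-identical neighbouring copy, and how fragments matching both were assigned is not given in the sources used here.

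Receptors for antibody showed the same order of size. On the Fc receptor list all 8 genes lay above both controls, and the median of the 6 tested was 0.87. Fcgr3, an activating low-affinity IgG receptor, was at 8.11 and 9.23 FPKM in control and 16.5 and 18.2 FPKM in scrambled siRNA. Fcgr2b, its inhibitory counterpart, was at 3.84 and 3.40 FPKM in control and 7.91 and 7.46 FPKM in scrambled siRNA. The activating and the inhibitory receptor therefore had near-equal differences, 0.93 and 0.91. Fcer1g, the common gamma chain through which activating Fc receptors signal, had a difference of 0.82.

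The phagocyte NADPH oxidase, which makes superoxide at the phagosome, was low. Of 6 listed genes 5 were in the tables, and all 5 lay above both controls. The 4 that were tested had a median of 0.69, but none had a mean of 5 FPKM, and Ncf4 and Rac2 reached the filter only through scrambled siRNA. Ncf4, a cytosolic subunit, was at 0.325 and 0.664 FPKM in control and 1.77 and 1.46 FPKM in scrambled siRNA, and the GTPase Rac2 at 0.93 and 0.638 FPKM and 1.80 and 1.85 FPKM.

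Lysosomal proteases separated by gene. Of 15 listed genes 12 were tested, 5 were higher at an unadjusted p under 0.05, and 9 lay above both controls. Over all 15, 11 lay above both controls and 0 below. The median of those tested was 0.36, ranging from 0.23 without scrambled siRNA replicate 1 to 0.46 without control replicate 1. Ctss (chromosome 3, 95526786 to 95556403, plus strand), the cathepsin S that trims the class II invariant chain, was at 55.5 and 64.5 FPKM in control (60.0 ± 6.37 SD, n = 2) and 123 and 131 FPKM in scrambled siRNA (126.8 ± 5.86 SD, n = 2), a difference of 1.07 (SE 0.15). Ctsh, a cathepsin with aminopeptidase activity, had a difference of 1.04, at 6.59 and 6.43 FPKM in control and 12.5 and 16.7 FPKM in scrambled siRNA. Cst3, the secreted cathepsin inhibitor cystatin C, was far more abundant, at 959 and 1080 FPKM in control and 1205 and 1177 FPKM in scrambled siRNA, a difference of only 0.23 (unadjusted p = 0.244).

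Most class II antigen presentation genes were low in control. Over all 10 listed genes, 7 lay above both controls and 0 below. The 6 tested had a median of 1.63, but most of them reached the filter only through scrambled siRNA, and the 1 gene with a mean of at least 5 FPKM, which overlapped between the groups, had a difference of -0.07. Cd74 (chromosome 18, 60803848 to 60812646, plus strand) encodes the chaperone that fills the class II groove and was at 1.18 and 0.416 FPKM in control and 9.74 and 7.37 FPKM in scrambled siRNA, a difference of 2.43 (SE 0.36). The alpha chain gene H2-Aa was at 0.66 and 0.377 FPKM in control and 6.69 and 3.54 FPKM in scrambled siRNA. The beta chain gene H2-Ab1 was at 0.243 and 0.0349 FPKM in control and 3.12 and 1.81 FPKM in scrambled siRNA. All 3 were at or below 1.18 FPKM in control, and scrambled siRNA replicate 1 was the higher library for each. In the Baf53b siRNA libraries Cd74 stood at 211 and 102 FPKM. Lag3 (chromosome 6, 124904361 to 124911705, minus strand), an inhibitory receptor that binds class II, was at 3.40 and 2.44 FPKM in control and 9.15 and 9.41 FPKM in scrambled siRNA, a difference of 1.402 (SE 0.19).

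Of 21 listed genes of class I presentation 16 were tested, 5 were higher at an unadjusted p under 0.05, and the median was 0.13. That median was 0.03 without scrambled siRNA replicate 1 and 0.31 without scrambled siRNA replicate 2. Over all 21, 10 lay above both controls and 0 below. H2-D1 (chromosome 17, 35262730 to 35267499, plus strand), a classical heavy chain, was at 7.48 and 6.43 FPKM in control (6.96 ± 0.742 SD, n = 2) and 21.04 and 19.4 FPKM in scrambled siRNA (20.2 ± 1.13 SD, n = 2), a difference of 1.42 (SE 0.19). H2-K1, the other classical heavy chain, was at 7.38 and 5.27 FPKM in control and 16.3 and 14.2 FPKM in scrambled siRNA. Their light chain B2m was at 56.9 and 74.7 FPKM in control and 128 and 132 FPKM in scrambled siRNA, a difference of 0.99. Of the tested members, 10 overlapped between the groups. Heavy chain genes are similar to each other in sequence, and fragments may be split among them.

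Of 25 listed interferon-stimulated genes 10 were tested, 7 were higher at an unadjusted p under 0.05 and 8 lay above both controls, with a median of 0.73. Over all 25, whatever the level, 19 lay above both controls and 0 below. Lgals3bp, a secreted galectin-binding glycoprotein, was at 4.82 and 4.65 FPKM in control and 13.04 and 7.52 FPKM in scrambled siRNA. Xaf1, an antagonist of the caspase inhibitor XIAP, was at 2.00 and 2.26 FPKM in control and 4.98 and 3.77 FPKM in scrambled siRNA. Ifi27 was at 8.38 and 7.55 FPKM in control and 16.2 and 10.98 FPKM in scrambled siRNA. In each of these scrambled siRNA replicate 1 was the higher library. The median of the list was 0.48 without that library and 0.94 without scrambled siRNA replicate 2.

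The interferon-induced GTPases, which attack vacuoles of intracellular pathogens, were scarce, and 4 of 15 were tested. Over all 15, 11 lay above both controls and 0 below. Gbp7 was at 0.767 and 0.689 FPKM in control and 1.24 and 1.53 FPKM in scrambled siRNA, and Gbp3 at 0.804 and 1.03 FPKM and 1.60 and 1.59 FPKM. Both of these genes reached the filter only through scrambled siRNA. Irgm1 was at 3.32 and 3.42 FPKM in control and 3.34 and 3.25 FPKM in scrambled siRNA, a difference of -0.03, so this member showed no separation. Among the interferon regulatory factors and STATs, 10 of 14 were tested and the median was 0.22. That median was 0.07 without scrambled siRNA replicate 1 and 0.32 without scrambled siRNA replicate 2. Over the 13 in the tables, 6 lay above both controls and 0 below. Ifnb1 and Ifng, the genes of interferon beta and gamma, were listed at 0 in all 4 libraries.

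Of 19 nucleic acid sensors and Toll-like receptors 11 were tested, 3 were higher at an unadjusted p under 0.05, 7 lay above both controls, and the median was 0.42. Over all 19, 11 lay above both controls and 0 below. Unc93b1, the chaperone that carries nucleic acid-sensing Toll-like receptors to endosomes, was at 6.91 and 4.98 FPKM in control and 12.9 and 9.78 FPKM in scrambled siRNA, a difference of 0.83. Tlr3, the endosomal receptor for double-stranded RNA, overlapped between the groups at 4.45 and 2.90 FPKM in control and 4.86 and 4.10 FPKM in scrambled siRNA. Aim2, a cytosolic DNA sensor, was at 0.853 and 1.59 FPKM in control and 2.06 and 2.48 FPKM in scrambled siRNA. Tmem173, which encodes STING, the adaptor of cytosolic DNA sensing, was at 1.74 and 1.49 FPKM in control and 3.64 and 2.25 FPKM in scrambled siRNA. Unc93b1, Aim2 and Tmem173 were thus separated and Tlr3 was not, a contrast among a few of the 19 members that was not itself tested. Cytosolic receptors of double-stranded RNA are not reported here.

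The genes of the RNA interference machinery itself, through which an siRNA acts, differed little. All 13 listed genes were tested, and 0 were higher or lower at an unadjusted p under 0.05 (1.8% and 0.179% of all genes). The 13 differences were all positive (63.3% of all genes, less under other scalings), with a median of 0.09 against 0.04 for all genes. The groups overlapped for 12, and 1 lay above both controls (12.1% of all genes). Tarbp2, a Dicer partner, was the member above both controls, at 7.81 and 5.99 FPKM in control and 8.17 and 7.94 FPKM in scrambled siRNA. The list median changed sign to -0.0040 without control replicate 2, where the median of all genes was -0.02.

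Promoter sequences were examined for the immune genes with the smallest p. The 59 immune-list genes higher at an unadjusted p under 0.05 and the 12 genes named as higher made 64 genes, of which 45 matched a RefSeq promoter (GRCm38.p6). The 250 bases before the start were searched on both strands. The interferon-stimulated response element, GAAA 2 times with any 2 bases between, was present for 9 of the 45 genes (20.0%) and for 3.46% of all 27025 genes. The core bound by the myeloid factor PU.1, GAGGAAG, was present for 9 (20.0%) and for 12.004% of all genes, and the STAT palindrome TTCNNNGAA for 7 (15.6%) and 8.13%. The genes were chosen from this comparison and from lists that include interferon-stimulated genes, many of which are known for this element, so the shares describe the choice and support nothing. A match describes letters in a window and is not a measured binding site. Of the promoters with the response element, those of Bst2, Ctss, Gbp7, Ifit3, Isg15 and Ncf1 lie wholly outside the deposited gene span, and 4 of them are shown as examples of its different arrangements. Capitals mark matches to any of the 3 motifs, and each sequence reads 5′ to 3′ on the strand of the gene.
Ctss, chr3:95526536-95526785, plus strand: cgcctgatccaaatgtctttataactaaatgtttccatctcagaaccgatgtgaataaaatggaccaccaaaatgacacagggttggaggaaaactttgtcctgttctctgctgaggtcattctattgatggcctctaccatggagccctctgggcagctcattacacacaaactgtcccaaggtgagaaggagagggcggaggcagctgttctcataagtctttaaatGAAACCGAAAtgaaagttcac
Isg15, chr4:156200819-156201068, minus strand: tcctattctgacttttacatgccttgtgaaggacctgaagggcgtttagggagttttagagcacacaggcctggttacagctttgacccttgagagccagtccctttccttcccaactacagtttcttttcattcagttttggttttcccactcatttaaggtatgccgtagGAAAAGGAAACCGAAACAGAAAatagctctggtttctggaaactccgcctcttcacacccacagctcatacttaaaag
Ifit3, chr19:34583279-34583528, plus strand: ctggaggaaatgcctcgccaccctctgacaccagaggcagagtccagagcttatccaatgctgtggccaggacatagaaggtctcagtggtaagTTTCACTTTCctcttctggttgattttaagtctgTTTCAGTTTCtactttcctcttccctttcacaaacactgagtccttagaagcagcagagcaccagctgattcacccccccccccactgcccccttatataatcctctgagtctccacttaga
Gbp7, chr3:142530086-142530335, plus strand: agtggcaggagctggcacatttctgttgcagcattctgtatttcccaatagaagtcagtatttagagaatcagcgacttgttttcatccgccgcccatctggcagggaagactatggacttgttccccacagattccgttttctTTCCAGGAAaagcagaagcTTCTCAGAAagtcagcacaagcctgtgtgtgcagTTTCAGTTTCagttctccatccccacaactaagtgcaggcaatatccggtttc
In Isg15 several matches overlap in one run, in Ifit3 and Gbp7 the element stands on the opposite strand, and Gbp7 also holds STAT palindromes. Isg15 and Ifit3 were picked for this element after their values were seen. Isg15, a ubiquitin-like protein attached to others after interferon, was at 0.879 and 0.725 FPKM in control and 1.66 and 1.51 FPKM in scrambled siRNA. It reached the filter on low values only through scrambled siRNA. Ifit3, which binds within an antiviral RNA-binding complex, was at 2.60 and 4.34 FPKM in control and 6.09 and 5.89 FPKM in scrambled siRNA.

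Chemokines and cytokines were mostly low. Of 25 listed genes 8 were tested, 3 were higher at an unadjusted p under 0.05, and the median was 0.11, or 0.23 without control replicate 2. Over all 25, 12 lay above both controls and 0 below. Ccl12, a monocyte-attracting chemokine, was at 0.599 and 0.217 FPKM in control and 3.65 and 6.21 FPKM in scrambled siRNA, a difference of 2.05 (unadjusted p = 4.81e-04). Cxcl13, a B-cell attractant, was listed at 0 in both controls and at 1.43 and 6.48 FPKM in scrambled siRNA, so its scrambled siRNA libraries differed several-fold from each other. Both Ccl12 and Cxcl13 reached the filter only through scrambled siRNA. Tgfb1 was at 1.31 and 1.18 FPKM in control and 2.30 and 2.55 FPKM in scrambled siRNA.

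Markers of blood leukocytes were low throughout. Of 28 listed markers 2 were tested, and over all 28, 17 lay above both controls, 1 below, and 2 (Prf1 and Ly6g) were listed at 0 in all 4 libraries. Their summed level was 6.82 and 6.11 FPKM in control and 14.35 and 13.5 FPKM in scrambled siRNA. The T-cell receptor complex genes Cd3e, Cd3d and Cd3g were listed at 0 in both controls and between 0.0751 and 0.556 FPKM in scrambled siRNA. Ptprc, the leukocyte antigen CD45 that microglia also express, was at 0.968 and 1.49 FPKM in control and 2.27 and 3.54 FPKM in scrambled siRNA. The part of these markers in the immune lists was not tested.

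**Figure D3:**
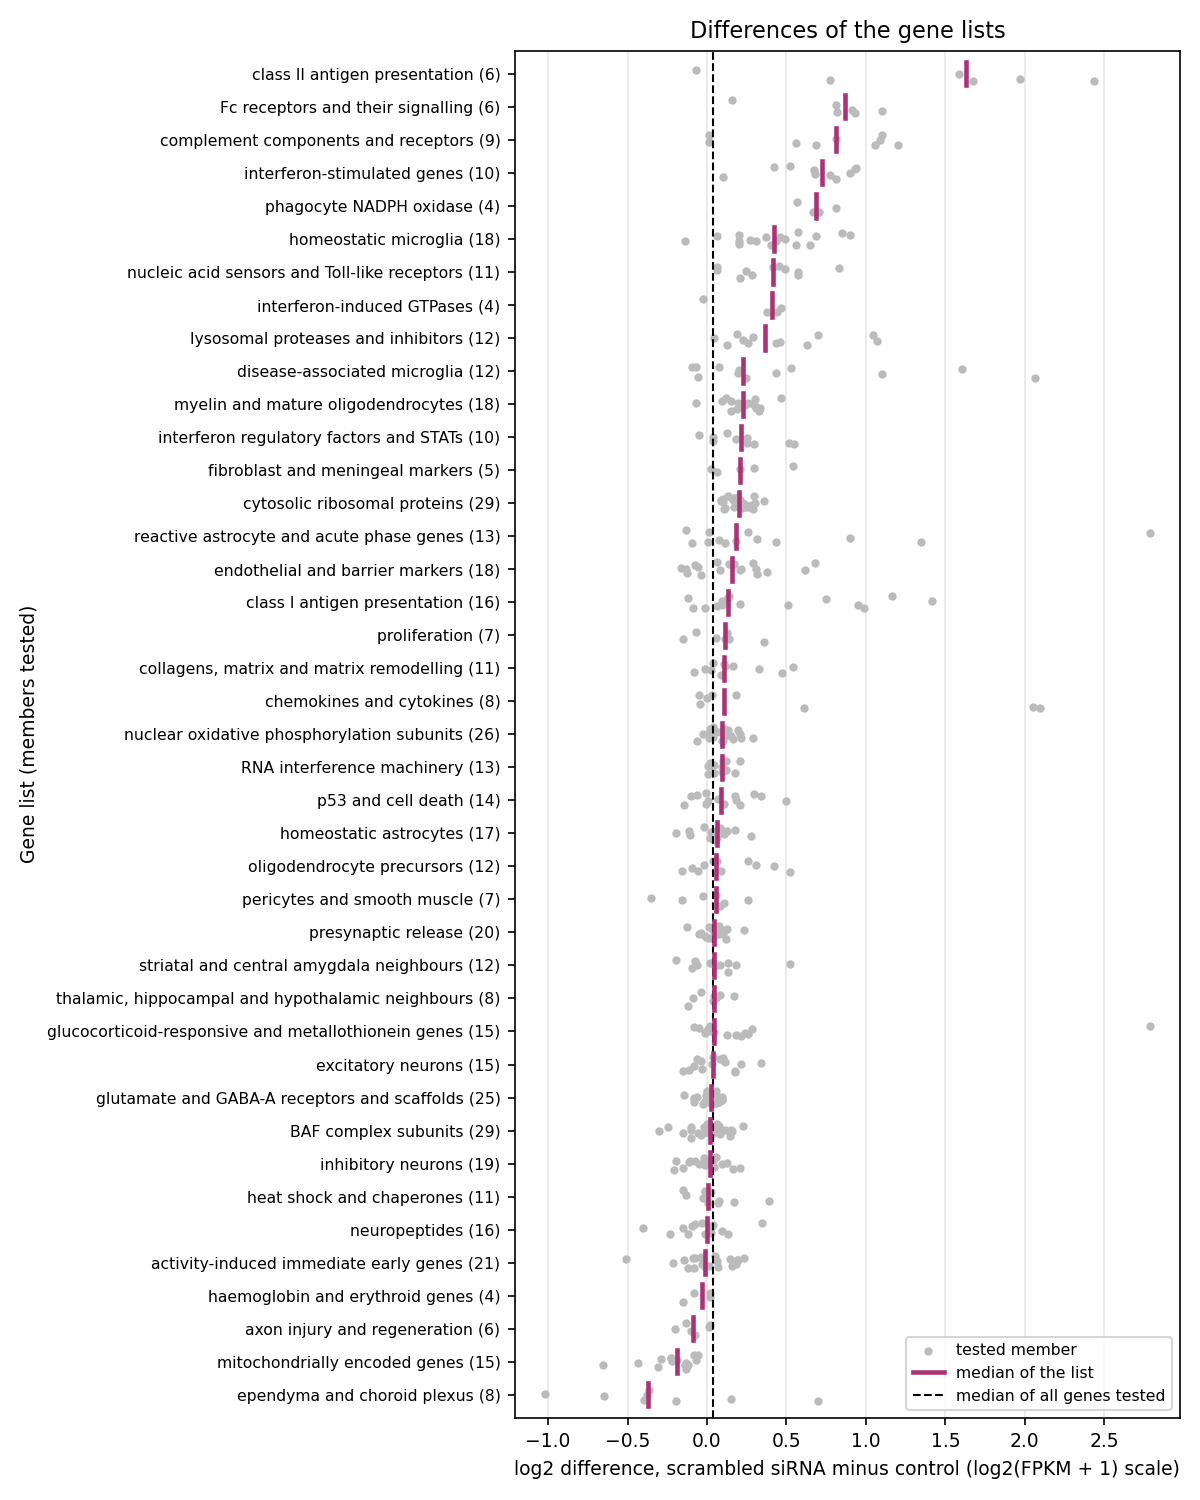
Difference in log2(FPKM + 1), scrambled siRNA minus control (horizontal axis), of each tested gene (grey points) of each list with at least 4 tested genes (vertical axis, number tested in parentheses); purple bars are list medians and the dashed line is the median of all genes, 0.04. Class II presentation (1.63, of which most genes passed the filter only through scrambled siRNA), Fc receptors (0.87) and complement (0.81) lie furthest right, and ependyma and choroid plexus genes furthest left (-0.37).

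Myelin genes lay slightly above control. Of 18 myelin genes 17 had a positive difference (63.3% of all genes, less under other scalings) and 10 lay above both controls (12.1% of all genes), with a median of 0.22 that stayed between 0.14 and 0.31 when single libraries were left out. Mbp, myelin basic protein, was at 392 and 492 FPKM in control and 537 and 554 FPKM in scrambled siRNA. Trf, the iron carrier transferrin, was the 1 member with an unadjusted p under 0.05, with a difference of 0.46. Control replicate 1 was the lowest of the 4 libraries for both genes. Bcas1, a marker of oligodendrocytes beginning to myelinate, was at 18.1 and 24.1 FPKM in control and 33.3 and 27.7 FPKM in scrambled siRNA.

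Vascular markers were mixed. Of 23 endothelial markers 18 were tested, and 7 lay above both controls and 1 below (12.1% and 5.62% of all genes). Over all 23, 9 lay above and 1 below (13.1% and 8.37% of all genes with no filter). The median of those tested was 0.16, and 0.0019 without control replicate 2. Ly6a, a surface antigen of brain endothelium, was at 12.3 and 10.8 FPKM in control and 20.3 and 16.4 FPKM in scrambled siRNA, a difference of 0.62. Vwf, von Willebrand factor, was at 0.785 and 0.867 FPKM in control and 1.42 and 2.52 FPKM in scrambled siRNA. It reached the filter on low values only through scrambled siRNA. Haemoglobin genes, which report residual blood, overlapped between the groups, with Hbb-bs at 35.2 and 38.6 FPKM in control and 38.3 and 28.5 FPKM in scrambled siRNA.

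Neuronal gene lists differed little in their medians. The excitatory, inhibitory, presynaptic, receptor and neuropeptide lists had medians between 0.00 and 0.04, and each median turned negative under the 3 other scalings. At an unadjusted p under 0.05, 0 of their genes were higher or lower (1.8% and 0.179% of all genes). Of 16 neuropeptide genes tested, 1 lay above both controls and 3 below (12.1% and 5.62% of all genes). Over all 20 listed, 1 lay above and 5 below (13.1% and 8.37% of all genes with no filter). Gria2, an AMPA receptor subunit, was at 167 and 155 FPKM in control and 179.6 and 161 FPKM in scrambled siRNA, a difference of 0.08. Among neuropeptides Trh was the most separated, at 8.43 and 6.50 FPKM in control and 5.45 and 5.27 FPKM in scrambled siRNA, a difference of -0.40 (unadjusted p = 0.0559). All 21 activity-induced immediate early genes were tested, and the median was -0.01. Of these, 17 overlapped between the groups, 2 lay above both controls and 2 below (12.1% and 5.62% of all genes). Egr1 was at 31.2 and 29.2 FPKM in control and 34.8 and 32.1 FPKM in scrambled siRNA. Nr4a2, an orphan nuclear receptor of the same response, was at 2.37 and 3.28 FPKM in control and 1.10 and 2.37 FPKM in scrambled siRNA, a difference of -0.51 with overlapping groups.

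Actl6b, the target of the other siRNA, was measured as a check of the scrambled sequence. It stood at 42.9 and 44.1 FPKM in control and 43.8 and 43.9 FPKM in scrambled siRNA, a difference of 0.01 (SE 0.13, 95% confidence interval -0.28 to 0.31), whose sign turned to -0.04 and -0.05 under other scalings. All 29 BAF complex genes were tested, 4 lay above both controls and 1 below, close to the 12.1% and 5.62% of all genes, and the median was 0.02. It turned negative under the 3 other scalings and ranged from -0.07 to 0.10 when single libraries were left out. Dpf3, a histone-reading subunit, was the member below both controls, at 2.02 and 2.24 FPKM in control and 1.48 and 1.81 FPKM in scrambled siRNA.

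Genes of protein synthesis and respiration were sensitive to single libraries. All 29 tested cytosolic ribosomal protein genes had a positive difference (63.3% of all genes, less under other scalings), with a median of 0.20. The groups overlapped for 23, and 6 lay above both controls (12.1% of all genes). The median of these genes was -0.0075 without scrambled siRNA replicate 1. The 15 mitochondrially encoded genes all had a negative difference, with a median of -0.19, and all overlapped. Their median was 0.15 without control replicate 2 and -0.57 without control replicate 1. Values of mt-Nd3, a complex I subunit, were 2751 and 4669 FPKM in control and 1991 and 3531 FPKM in scrambled siRNA. In both groups replicate 2 was the library with the higher mitochondrial level.

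Genes lower in scrambled siRNA at an unadjusted p under 0.05 were fewer, and the 12 named had differences of -0.62 to -0.34. Of the 26 genes lower at an unadjusted p under 0.05, 13 were protein-coding and 1 belonged to any list. Of all 14516 genes tested, 12401 were protein-coding and 516 belonged to any list. The adjusted p of the 12 named genes rounded to 1.00 (limma). Nnat, neuronatin, an imprinted proteolipid of neurons, was the most abundant, at 172 and 188 FPKM in control (180.1 ± 11.2 SD, n = 2) and 137 and 147 FPKM in scrambled siRNA (141.8 ± 7.12 SD, n = 2), a difference of -0.34 (SE 0.14). Mllt10, a cofactor of the histone methyltransferase Dot1l, was at 11.8 and 10.5 FPKM in control and 8.59 and 6.92 FPKM in scrambled siRNA, a difference of -0.48. Suz12, a core subunit of Polycomb repressive complex 2, was at 11.9 and 11.5 FPKM in control and 8.17 and 9.55 FPKM in scrambled siRNA, a difference of -0.37. The groups did not overlap for any of the 12, which their choice by smallest p favours (5.62% of all genes lay below both controls). Itga8, an integrin alpha chain, had the largest difference among them, -0.62, but was low, at 2.36 and 1.53 FPKM in control and 0.815 and 0.986 FPKM in scrambled siRNA. The other 8 were Efcab10 (-0.44), Ripply2 (-0.42), the mitochondrial release factor gene Mtrf1l (-0.43), the vesicular polyamine transporter gene Slc18b1 (-0.48), Fam183b (-0.50), Pigx (-0.34), Poc1a (-0.42) and Rsph1 (-0.38).

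**Figure D4:**
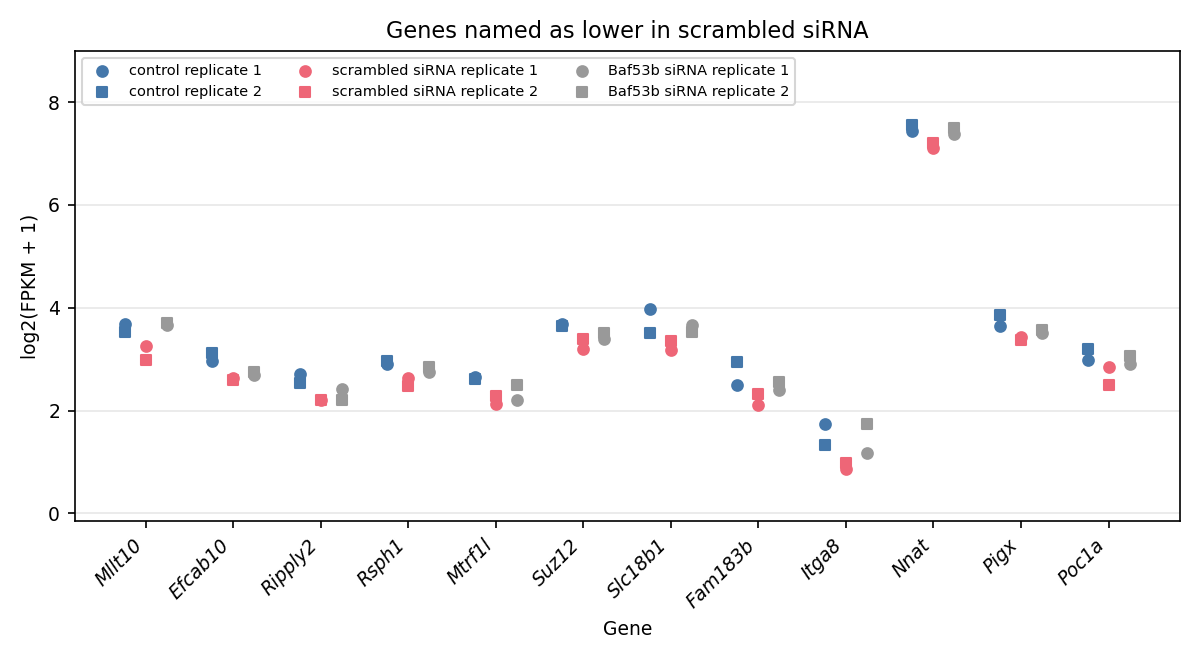
Level as log2(FPKM + 1) (vertical axis) of the 12 genes named as lower (horizontal axis), 1 point per library with colours for group and shapes for replicate as in the plot of the higher genes. Both red points lie below both blue points for each gene, by 0.34 to 0.62 on average, which the choice of genes by p in this comparison favours.

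Rsph1, a radial spoke protein of motile cilia, also belongs to the ependyma and choroid plexus list. It was at 6.46 and 6.82 FPKM in control and 5.20 and 4.56 FPKM in scrambled siRNA (unadjusted p = 0.035). Of the 15 listed genes 8 were tested and the median was -0.37, ranging from -0.51 to -0.14 when single libraries were left out. Over all 15, 7 lay below both controls and 1 above (8.37% and 13.1% of all genes with no filter). Ccdc153 was at 4.14 and 7.33 FPKM in control and 2.03 and 2.45 FPKM in scrambled siRNA, a difference of -1.02, and Tmem212 at 2.13 and 3.49 FPKM and 1.78 and 1.06 FPKM, a difference of -0.65. Control replicate 2 was the highest library for each of these 3 ciliary or ependymal genes. Ttr, the transthyretin gene of choroid plexus, went the other way in 1 library, at 1.09 and 2.39 FPKM in control and 8.87 and 0.884 FPKM in scrambled siRNA. The amount of ventricular lining in each dissection was not measured.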

How the data were processed

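RNA-seq libraries of mouse lateral amygdala were made from poly(A)-selected RNA with a stranded kit and sequenced from both ends, per the labels' protocols. The authors deposited FPKM per gene with a confidence interval and an estimate status, 1 table per library, per the file headers. The submitters' processing notes name TopHat2 2.1.1, Cufflinks 2.2.1, bcl2fastq 2.19.1.403 and the build mm10. The annotation release is not given in the sources used here. FPKM is relative to the library's total, so abundant transcripts lower the others. Read counts were not used here and whole reads were not recovered.

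Rows of synthetic spike-in RNA were left out, 48 repeated gene IDs were summed, and gene types came from GENCODE M21. A mean of 1 FPKM or more in the 4 libraries was reached by 14823 genes, of which 303 small RNA genes and 4 genes with a failed estimate were removed, leaving 14516. log2(FPKM + 1) was fitted with limma 3.58.1 (R 4.3.3, group means, eBayes with trend, two-sided, Benjamini-Hochberg adjustment over all genes) to all 6 libraries in 3 groups, leaving 3 residual degrees of freedom, with the contrast scrambled siRNA minus control. The script was tested on simulated data. Since no gene passed the adjusted threshold, the genes named were the 12 with the smallest unadjusted p in each direction among those differing by at least 0.3, leaving out predicted genes, clones and pseudogenes, plus, from each of 42 gene lists, the 3 with the smallest p and the 2 most abundant, and Actl6b; genes outside this rule are marked, and a few genes within it are not reported here. The comparison and the lists were chosen with earlier results of these data known. Alternatives changed the pseudocount, filter, scaling, moderation, libraries in the fit and replicate block.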

Additional observations from a re-analysis of the deposited data

Results flagged for a closer look

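Rows of synthetic spike-in sequences, on which the labels are silent, had signal in every library and stood outside the comparison. Their summed FPKM in the control libraries was 117 and 125. The scrambled siRNA libraries had sums of 207.162 and 656.199, and the Baf53b siRNA libraries had sums of 4825 and 811.446. All 4 siRNA libraries lay above both controls. The control mean was 121.1 ± 5.78 (SD, n = 2) and the scrambled siRNA mean 431.7 ± 317.5 (SD, n = 2), with an exact permutation p of 0.333 (two-sided), the smallest that 2 libraries against 2 can give. Of 92 spike-in sequences, the controls detected 31 and 28, the scrambled siRNA libraries 35 and 47, and the Baf53b siRNA libraries 60 and 50.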

How the results depend on the processing

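The absence of genes past the adjusted threshold held under the other pseudocounts, filters, scalings and moderation settings tried. The exceptions were the fit to only the 4 libraries compared, which called 1 gene higher, a predicted gene, and the fits that left out 1 library, which called 1 to 5 genes higher and 0 to 7 lower. Counts at an unadjusted p under 0.05 moved more. Higher genes numbered 99 with a mean FPKM of at least 5, 650 with no filter, and 155 to 576 when 1 library was left out, against 261. Lower genes numbered 8 with a mean FPKM of at least 5, 270 with no filter, 41 with small RNA genes kept, 47 with median-of-ratios scaling, 64 with quantile normalization, 53 when scaled without mitochondrial genes, and 25 to 221 when 1 library was left out, against 26. Of 115 genes whose differences were followed through 19 alternatives, 112 kept their sign. Actl6b turned to -0.038 with median-of-ratios scaling, -0.037 with quantile normalization, -0.050 when scaled without mitochondrial genes and -0.0092 without control replicate 1, with a range of -0.0092 to 0.032 when 1 library was left out. Hbb-bs turned to 0.052 without scrambled siRNA replicate 2, with a range of -0.359 to 0.052, and Ttr to -0.50 without scrambled siRNA replicate 1, with a range of -0.50 to 1.89. Of the same genes, 1 (Lcn2) passed the adjusted threshold in an alternative, without scrambled siRNA replicate 2. The cause of these changes was not tested.

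The labels number the replicates alike in each group without saying that a number marks a shared animal, batch or day. Deviations from the group means correlated across genes at 0.387 between same-numbered control and scrambled siRNA libraries. With the replicate block, 0 genes passed the adjusted threshold (smallest adjusted p 0.0562), and 610 genes were higher and 78 lower at an unadjusted p under 0.05. Without read counts, the depth behind single genes is known only from the estimate in the report.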
